A study of Mus musculus with 24 samples.

Results

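The ATP-binding cassette (ABC) genes of EO771 mouse mammary carcinoma cells were followed across 4 derivatives of the line, with Abcg2 at the centre. Members were all genes of the batch 2 count table whose symbol names a numbered ABC gene of subfamilies A to G, which gave 30 of 13915 genes, and the same Ensembl identifiers were read in the batch 1 table. Abcg2 itself was chosen by its measured level, which differed strongly between the derivatives, so its values and fold changes are given as a description and without a test. Counts of members that passed a test leave it out and refer to the other 29.

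X2 cells were the retroviral vector control, made with pLNCX2, CCR7 cells had been transduced with mouse Ccr7 in that vector and sorted as negative for podoplanin (PDPN), and CCR7-PDPN cells were the PDPN-positive sort of the same transduced cells. X2-PDPN cells had been sorted from the vector control for PDPN that appeared on the surface spontaneously. All were grown as cultures of a line from a spontaneous tumour of C57BL/6 mice, were sorted as populations without cloning, and were sequenced as 4 technical replicates each, so that p-values measure only the spread between libraries of 1 cell population and not between independently made lines. Batch 1 held X2, CCR7 and CCR7-PDPN, batch 2 held X2, X2-PDPN and CCR7-PDPN, and comparisons were made within a batch.

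ABC proteins use the binding and hydrolysis of ATP to move substrates across membranes. Members of subfamilies A and G mainly move lipids and sterols, several of subfamilies B, C and G export drugs and conjugated metabolites, and those of subfamily D serve peroxisomes and lysosomes. Proteins of subfamilies E and F have no membrane-spanning part and act on ribosomes. ABCG2, the breast cancer resistance protein, exports drugs, urate and porphyrins and is the pump behind the dye-excluding side population of many tissues and tumours.

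The Abcg2 gene lies on chromosome 6, chr6:58584523-58695676 on the plus strand of GRCm38. RefSeq gave 3 promoter windows for it, each from 250 bases before to 50 bases after an annotated start, and they are shown because the counts are summed over the whole gene and do not say which start was used. The second and the third start lie 12.1 and 56.0 kb inside the gene. The windows are written 5′ to 3′, with matches to any of 5 searched motifs in capitals.
Abcg2 start 1, chr6:58584283-58584582, plus strand: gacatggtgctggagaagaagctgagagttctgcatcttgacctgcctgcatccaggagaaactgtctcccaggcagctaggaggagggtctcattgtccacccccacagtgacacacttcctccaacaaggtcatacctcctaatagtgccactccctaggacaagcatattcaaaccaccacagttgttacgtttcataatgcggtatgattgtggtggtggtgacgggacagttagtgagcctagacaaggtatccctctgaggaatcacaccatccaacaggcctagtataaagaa
Abcg2 start 2, chr6:58596422-58596721, plus strand: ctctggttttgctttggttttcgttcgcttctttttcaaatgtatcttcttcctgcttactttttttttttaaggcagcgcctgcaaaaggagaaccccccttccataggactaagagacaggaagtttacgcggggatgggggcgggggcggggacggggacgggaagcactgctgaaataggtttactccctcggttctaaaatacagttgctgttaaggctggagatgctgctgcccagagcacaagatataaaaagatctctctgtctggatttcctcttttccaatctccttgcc
Abcg2 start 3, chr6:58640296-58640595, plus strand: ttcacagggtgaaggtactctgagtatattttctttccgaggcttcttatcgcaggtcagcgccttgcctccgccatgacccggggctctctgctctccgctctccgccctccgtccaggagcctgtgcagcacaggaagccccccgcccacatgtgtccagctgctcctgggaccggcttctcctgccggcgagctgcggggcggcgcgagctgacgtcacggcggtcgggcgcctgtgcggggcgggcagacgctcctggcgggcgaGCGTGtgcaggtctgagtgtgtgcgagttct

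Searched on both strands were GCGTG, the core of the element bound by the aryl hydrocarbon receptor, ACGTG, the core of the hypoxia response element, TGACNNNGC, the core of the antioxidant response element, and the interferon-stimulated response element and the liver X receptor direct repeat, known by name. The capitals in the third window mark its only match, GCGTG, which was present in 32.4% of 32851 RefSeq mouse promoter windows of the same length. The other shares were 19.6% for ACGTG, 12.4% for TGACNNNGC, 3.44% for the interferon element and 0.0152% for the direct repeat. The 3 windows held 3, 10 and 28 CpG dinucleotides, against a median of 7 over all windows. Promoter windows were matched for 21 of the 30 members, of which 8 held GCGTG, 5 held ACGTG, 4 held TGACNNNGC and 0 held either of the longer elements. These matches describe the letters and were not tested for binding.

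The libraries held 22275468 to 33395418 counts in batch 1 and 22788542 to 35721027 in batch 2, of which the 30 members took 0.243% to 0.263%. The level of Ccr7 and of Pdpn fitted the label of every library, with Pdpn at 47.4 to 54.8 TPM (counts per kilobase of exon, scaled to the same sum in each library) in the PDPN-positive sorts and at most 1.27 TPM elsewhere. Of the markers of the line, Krt8 (415 to 576 TPM), Vim (1767 to 2382 TPM) and Twist1 (116 to 149.9 TPM) were high, whereas Krt18 reached at most 0.732 TPM in batch 1. Of 11 markers of leukocytes, endothelium, fibroblasts and adipocytes, 1 reached 1 TPM, the mesenchymal receptor gene Pdgfra. The summed level of the list lay between 53.6 and 70.7 TPM. It was 53.6 to 58.1 TPM in CCR7-PDPN of batch 1 and 65.4 to 70.7 TPM in X2-PDPN, with 11 of the markers listed in batch 1 and 4 in batch 2. The first library of CCR7 stood apart from the other replicates of its group: the chi-square per degree of freedom of its counts against theirs was 13.6 to 22.7, against 2.07 to 8.53 for the other 33 pairs of replicates. The counts of called members in the comparisons with CCR7, and the values of the members called there, are therefore also given without it.

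The members spanned more than 3 orders of magnitude in level. TPM, summed over the 13915 genes, allows genes of different length to be compared, and by the mean over the 6 groups the members acting on ribosomes led, with Abcf2 at 396, Abcf1 at 295 and Abce1 at 278 TPM. Together with Abcf3 they made up 56.0% to 60.2% of the summed TPM of all members in each group. The mitochondrial transporter gene Abcb10 followed at 121 TPM, and Abca2 (78.1 TPM), Abcc1 (73.0 TPM) and Abcd4 (57.4 TPM) were lower. At least 10 TPM in every group was reached by 17 members, and 23 reached at least 1 TPM in every group. Abca4, Abca5, Abca9, Abcb1a and Abcc8 stayed below 1 TPM throughout, with means over the groups from 0.0816 TPM (Abca5) to 0.168 TPM (Abcb1a), as did Abcg4 at 0.465 TPM. The sum over all members ranged only from 1668 ± 23.5 TPM in X2-PDPN to 1857 ± 17.5 TPM in CCR7 (SD, n = 4 each).

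**Figure D1:**
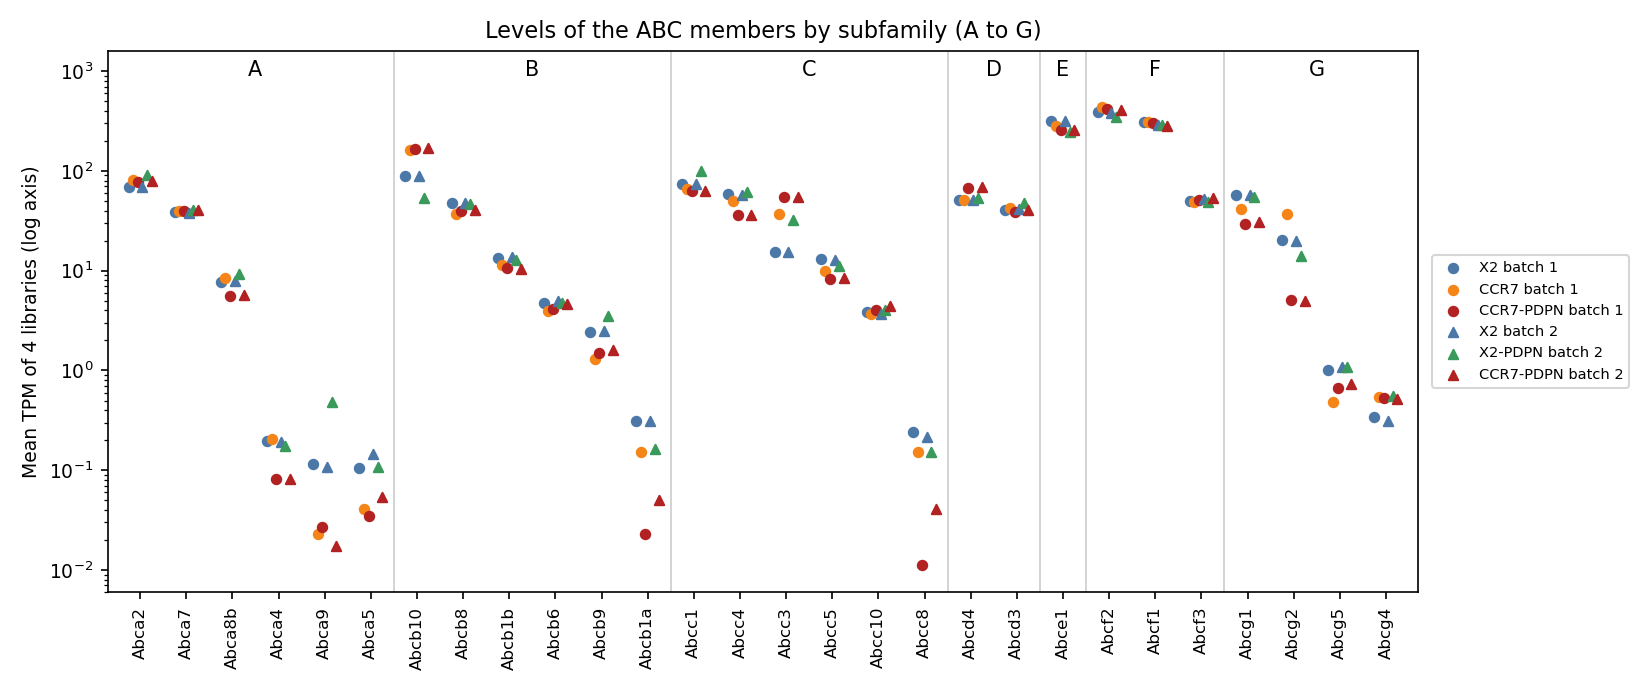
Mean TPM (log axis) of 28 members in the 6 groups, ordered by subfamily A to G and by level; each point is the mean of 4 libraries, circles are batch 1 and triangles batch 2. The ribosome factors Abce1, Abcf1 and Abcf2 sit highest with little spread between groups, whereas Abcg2 in subfamily G spreads from 4.96 to 36.6 TPM.

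Abcg2 was highest in CCR7 cells and lowest in CCR7-PDPN cells, which are the negative and the positive PDPN sort of the same transduced population. In batch 1 its libraries read 20.4, 20.4, 19.3 and 20.4 TPM in X2. The CCR7 libraries read 34.1, 37.0, 39.0 and 36.2 TPM. The CCR7-PDPN libraries read 5.45, 4.66, 5.60 and 4.65 TPM. The 3 groups did not overlap, and the mean of CCR7 was 7.18 times that of CCR7-PDPN and 1.82 times that of X2. In batch 2 the X2 libraries read 18.4, 19.6, 20.2 and 21.3 TPM. X2-PDPN read 14.6, 14.3, 13.9 and 12.8 TPM, and CCR7-PDPN read 4.96, 4.79, 5.33 and 4.77 TPM. Here too the groups stood apart, and X2 was 1.43 times X2-PDPN and 4.00 times CCR7-PDPN.

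On the log2 scale of the fit, Abcg2 differed by 0.86 (SE 0.05) between CCR7 and X2, by -2.82 (SE 0.06) between CCR7-PDPN and CCR7, and by -1.96 (SE 0.06) in batch 1 and -1.98 (SE 0.05) in batch 2 between CCR7-PDPN and X2. It differed by -0.52 (SE 0.05) between X2-PDPN and X2 and by -1.46 (SE 0.06) between CCR7-PDPN and X2-PDPN. The PDPN-positive sort thus read lower than its PDPN-negative counterpart with and without Ccr7, and the difference that came with PDPN was lower with Ccr7 by a log2 value of -2.30 (SE 0.08). That value sets the CCR7 libraries of batch 1 against the X2-PDPN libraries of batch 2. The share of Abcg2 in the summed TPM of subfamily G was 25.4% and 25.1% in X2, 46.3% in CCR7, 19.7% in X2-PDPN and 14.3% and 13.5% in CCR7-PDPN.

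**Figure D2:**
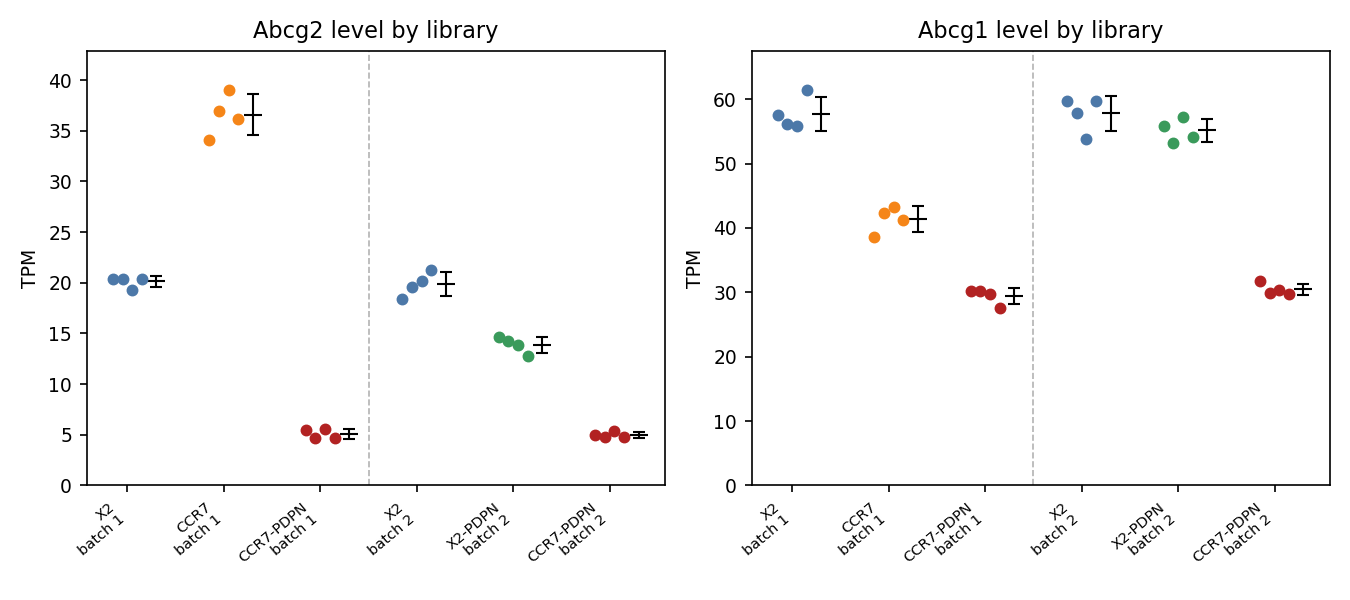
TPM of Abcg2 (left) and Abcg1 (right) in each of the 24 libraries; points are libraries, the black bar beside them is the mean with its SD (n = 4), and the dashed line parts batch 1 from batch 2. Abcg2 peaks in CCR7 at 36.6 TPM and is near 5 TPM in CCR7-PDPN in both batches, whereas Abcg1 is below X2 in CCR7 as well.

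The other 29 members were compared with edgeR's quasi-likelihood test over all genes, and a member was called where its Benjamini-Hochberg adjusted p was under 0.05 and its fold change above 2 in either direction (absolute log2 fold change above 1). In CCR7 against X2, 2 of 26 members tested were called, 1 higher (Abcc3) and 1 lower (Abcg5), against 6.48% of all genes tested. By adjusted p alone 6 were higher and 10 lower, against 24% and 25.2% of all genes. In CCR7-PDPN against CCR7, 2 of 26 were called, both lower (Abca4 and Abcc8), against 3.27% of all genes, and by adjusted p alone 4 were higher and 9 lower, against 20.9% and 20.7%. In CCR7-PDPN against X2 of batch 1, 3 of 26 were called, 1 higher (Abcc3) and 2 lower (Abca4 and Abcc8), against 9.45% of all genes, and 7 were higher and 12 lower by adjusted p alone, against 30.3% and 30.6%.

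In batch 2 all 29 could be tested. In X2-PDPN against X2, 2 were called, both higher (Abcc3 and Abca9), against 5.05% of all genes, and Abca9 had entered the table through X2-PDPN alone. By adjusted p alone 10 were higher and 8 lower, against 28.2% and 28.5%. In CCR7-PDPN against X2, 6 were called, 1 higher (Abcc3) and 5 lower (Abca4, Abca5, Abca9, Abcb1a and Abcc8), against 9.63% of all genes, and by adjusted p alone 8 were higher and 15 lower, against 32.0% and 32.8%. In CCR7-PDPN against X2-PDPN, 6 were called, 1 higher (Abcb10) and 5 lower (Abca4, Abca9, Abcb1a, Abcb9 and Abcc8), against 9.16% of all genes, and by adjusted p alone 6 were higher and 15 lower, against 31.2% and 32.0%. Leaving out the first CCR7 library gave 2, 3 and 4 called members in the 3 comparisons of batch 1, in the order above, with 27 tested. Without that library the log2 fold change between CCR7 and X2 was 1.27 for Abcc3 and -1.05 for Abcg5, and that between CCR7-PDPN and CCR7 was -1.10 for Abca4 and -3.37 for Abcc8. The median log2 fold change over the members was -0.03, -0.03, -0.15, -0.04, -0.23 and -0.19 in the 6 comparisons in this order, beside 0.00 over all genes in each. The median of the absolute log2 fold change was 0.45 over the members and 0.23 over all genes in CCR7-PDPN against X2 of batch 2, but 0.14 for both in CCR7-PDPN against CCR7.

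Several of the called members had very low counts, and a table kept to genes with at least 10 counts in some library holds such genes only through the group in which they are higher. No library of CCR7-PDPN in batch 2 reached 10 counts for Abca5, Abca9, Abcb1a or Abcc8, and Abca9 reached that count only in X2-PDPN. In batch 1 CCR7-PDPN libraries held 2 counts or fewer of Abcc8. The table of that batch was not filtered, and Abcc8 passed the filter of the fit through X2 and CCR7. Abca4, also low in CCR7-PDPN, passed that filter through the other groups of each batch. Such a member had to differ to be tested, and nothing is read from its adjusted p-value. Requiring a CPM (counts scaled to library size) of at least 1 in 4 libraries removed these members and left 1, 0, 1, 1, 1 and 2 called members in the 6 comparisons. Over the 6 comparisons 9 of the 29 members were called at least once, 27 had an adjusted p under 0.05 at least once, and 2, Abca7 and Abcf1, had none. The matching shares of all genes over the 6 comparisons were not computed, so nothing particular to the members is read from these counts. For CCR7-PDPN against X2, which was sequenced in both batches from separate libraries, the log2 fold change had the same sign in 26 of 26 members tested in both, and it differed by a median of 0.03 between the batches. The difference stayed under 0.2 for 25 of them and was 1.83 for Abcc8, a member with at most 5 counts per CCR7-PDPN library.

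**Figure D3:**
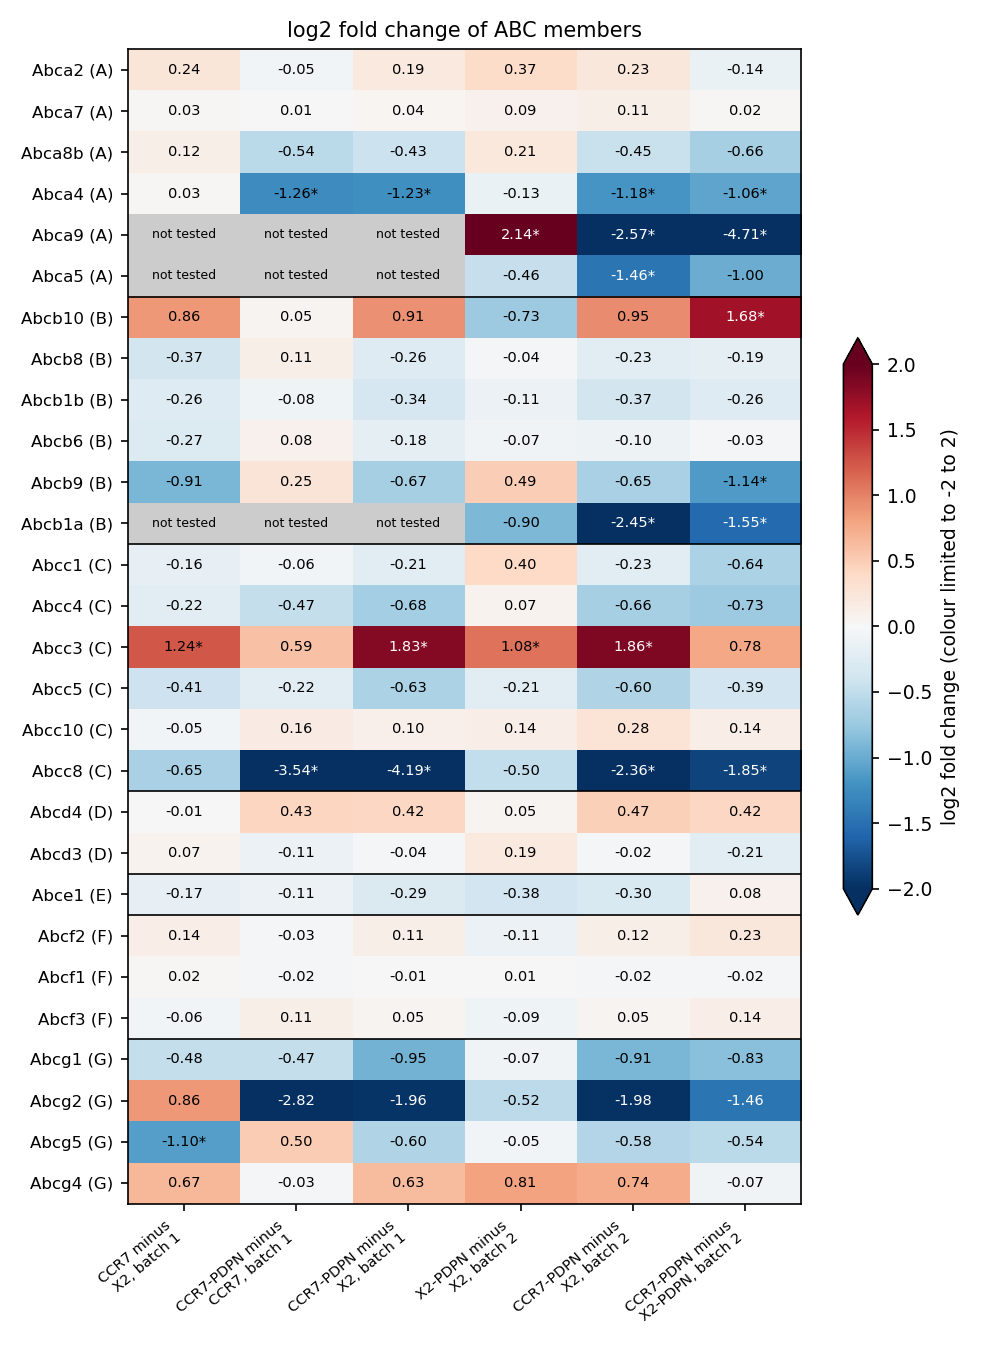
log2 fold change of 28 members (by subfamily, top to bottom) in the 6 comparisons (columns, first group minus second); colour runs from blue (lower) to red (higher), an asterisk marks a called member, and grey cells were not tested. Abcg2 carries no asterisk because it was not tested, and the fitted values of Abca9 and Abcc8 in CCR7-PDPN rest on few counts and depend on the prior count. Members of subfamily F stay between -0.11 and 0.23, and Abcc3 is higher in all 6 columns, as is Abca7 with values of at most 0.11.

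Among the sterol and lipid transporters, Abcg1 was lower in both populations with Ccr7. ABCG1 passes cholesterol from cells to high-density lipoprotein. In batch 1 Abcg1 read 55.8 to 61.4 TPM in X2. CCR7 read 38.6 to 43.3 TPM and CCR7-PDPN 27.5 to 30.2 TPM, with no overlap between the groups. It fell by 0.48 log2 units (SE 0.04, adjusted p = 2.3e-09) in CCR7 and by 0.95 (SE 0.04, adjusted p = 2.3e-14) in CCR7-PDPN relative to X2. In batch 2, X2 read 53.9 to 59.8 TPM, X2-PDPN 53.2 to 57.3 TPM and CCR7-PDPN 29.8 to 31.7 TPM. X2-PDPN overlapped with X2 (log2 fold change -0.07, adjusted p = 0.055), and CCR7-PDPN lay below X2-PDPN by 0.83 log2 units (log2 fold change -0.83, adjusted p = 1.9e-24). None of these changes exceeded 1 log2 unit, so Abcg1 was not among the called members. Both Abcg1 and Abcg2 were thus lower in CCR7-PDPN than in X2, and in CCR7 against X2 Abcg1 was lower while Abcg2 read higher.

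Abcg4, a relative of Abcg1 known from brain, and Abcg5, which pairs with Abcg8 to expel plant sterols, were near 1 TPM or below. Abcg4 had 10 to 34 counts per library and rose in X2-PDPN (log2 fold change 0.81, adjusted p = 0.013) and in CCR7-PDPN of batch 2 (0.74, adjusted p = 0.024) relative to X2, although the libraries overlapped in both. In CCR7 against X2 the change of Abcg4 was 0.67 (adjusted p = 0.048). Abcg5 fell by 1.10 log2 units in CCR7 relative to X2 (SE 0.33, adjusted p = 0.0082), with 7 to 14 counts per library against 11 to 32. Without X2 replicate 3 or 4 or CCR7 replicate 2 the change of Abcg5 shrank to between -0.97 and -0.85 and was no longer called. Abcg8 had at most 2 counts in any batch 1 library.

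In subfamily A, Abca2 and Abca8b changed by less than 1 log2 unit in each of the 6 comparisons and Abca7 did not pass the test. Abca2, a transporter of endosomes and lysosomes with a part in sterol traffic, was 69.4 ± 0.841 TPM in X2 of batch 1, 81.9 ± 3.82 in CCR7, 77.8 ± 3.99 in CCR7-PDPN and 90.1 ± 2.76 in X2-PDPN (SD, n = 4 each). It rose by 0.37 log2 units in X2-PDPN relative to X2 (SE 0.03, adjusted p = 2e-15) and by 0.24 in CCR7 (SE 0.04, adjusted p = 1.2e-05). Abca7, which moves phospholipids and serves phagocytosis, had adjusted p-values of 0.1 to 0.89 in the 6 comparisons, and its group means lay between 37.9 and 40.5 TPM. Abca8b fell in CCR7-PDPN relative to each group it was compared with, by 0.43 log2 units against X2 of batch 1 (adjusted p = 4.7e-05) and by 0.66 against X2-PDPN (adjusted p = 1.5e-13), and was 0.21 higher in X2-PDPN than in X2 (adjusted p = 0.001).

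Abca4, the retinoid flippase of photoreceptors, was called lower in CCR7-PDPN in all 4 of its comparisons at 5 to 11 counts per library. In batch 1 the X2 libraries held 13 to 21 counts, those of CCR7 7 to 26 and those of CCR7-PDPN 5 to 11. In batch 2 X2 held 12 to 21, X2-PDPN 8 to 22 and CCR7-PDPN 6 to 10. The log2 fold change was -1.26 (SE 0.38) against CCR7 and -1.23 (SE 0.38) against X2 in batch 1. In batch 2 it was -1.18 (SE 0.35) against X2 and -1.06 (SE 0.35) against X2-PDPN. The last call was lost without CCR7-PDPN replicate 3 or X2-PDPN replicate 3 or 4, at -0.98 to -0.90. No test is given for these values, since Abca4 passed the filter on low counts through the groups in which it was higher. The libraries overlapped against CCR7 and X2-PDPN and did not overlap against X2.

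Abca9 and Abca5 lie with Abca8b in a cluster on chromosome 11 (chr11:109932190-110337716) whose members are similar in sequence, so reads could be shared among them. The 4 X2-PDPN libraries held 30, 38, 28 and 32 counts of Abca9, those of X2 in the same batch 9, 4, 7 and 7, and those of CCR7-PDPN 2, 2, 0 and 0. The fitted log2 difference between X2-PDPN and X2 was 2.14 (SE 0.31), given with no test because the gene had entered the table through X2-PDPN alone. Summed counts of 4 in CCR7-PDPN stood against 128 in X2-PDPN, a rate 29.5 times lower (95% exact interval 11.3 to 110.1, counting error only), and against 27 in X2, a rate 6.66 times lower (2.32 to 26.2). Abca5 had 10 to 17 counts in X2, 5 to 18 in X2-PDPN and 2 to 6 in CCR7-PDPN. Its fitted log2 difference between CCR7-PDPN and X2 was -1.46 (SE 0.43), given with no test because the gene had entered the table through X2 and X2-PDPN.

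Of the exporters of drugs and conjugates, Abcc3 rose in each derivative. ABCC3, or MRP3, expels glucuronide conjugates and bile acids across the basolateral membrane. In batch 1 the X2 libraries read 15.4, 15.4, 15.2 and 16.1 TPM of Abcc3. The CCR7 libraries read 34.4, 39.0, 36.6 and 37.3 TPM, and the CCR7-PDPN libraries 54.9, 54.9, 57.1 and 50.1 TPM. The order X2, CCR7, CCR7-PDPN held without overlap, with log2 fold changes of 1.24 (SE 0.05, adjusted p = 2.4e-15) for CCR7 against X2 and 0.59 (SE 0.04, adjusted p = 4.9e-10) for CCR7-PDPN against CCR7.

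In batch 2, Abcc3 read 14.9, 15.8, 14.2 and 16.4 TPM in X2. X2-PDPN read 33.2, 32.4, 32.3 and 32.3 TPM, and CCR7-PDPN 58.2, 53.1, 56.7 and 51.1 TPM. X2-PDPN was higher than X2 by 1.08 log2 units (SE 0.05, adjusted p = 1.5e-23), and CCR7-PDPN was higher than X2-PDPN by 0.78 (SE 0.04, adjusted p = 4.4e-21). Against X2, CCR7-PDPN was higher by 1.83 (SE 0.05, adjusted p = 2.3e-18) in batch 1 and by 1.86 (SE 0.04, adjusted p = 2.6e-33) in batch 2. The difference that came with PDPN was lower with Ccr7 than without it (-0.49, SE 0.06, adjusted p = 8.1e-08), a value that again spans both batches.

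Abcc1, Abcc4 and Abcc5 of the same subfamily fell in CCR7-PDPN relative to X2. Abcc1, or MRP1, an exporter of glutathione conjugates and leukotriene C4, was 73.7 ± 1.17 TPM in X2, 66.3 ± 6.17 in CCR7 and 62.6 ± 2.75 in CCR7-PDPN of batch 1 (SD, n = 4 each). It was highest in X2-PDPN, at 98.8 ± 3.23 TPM, a rise of 0.40 log2 units over X2 (SE 0.03, adjusted p = 3.7e-17), and CCR7-PDPN lay 0.64 log2 units below X2-PDPN (log2 fold change -0.64, adjusted p = 2.1e-24). The first CCR7 library read 57.2 TPM of Abcc1 and the other 3 read 68.2 to 70.3 TPM. Abcc5, or MRP5, which exports cyclic nucleotides, fell in CCR7 (-0.41, adjusted p = 4e-07), in X2-PDPN (-0.21, adjusted p = 0.00015) and in CCR7-PDPN of both batches (-0.63, adjusted p = 4e-10, and -0.60, adjusted p = 1.4e-14) relative to X2.

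Abcc4, or MRP4, an exporter of cyclic nucleotides and prostaglandins, was 58.3 ± 1.31 TPM in X2, 50.3 ± 1.84 in CCR7 and 35.7 ± 1.13 in CCR7-PDPN of batch 1. In batch 2 Abcc4 stood at 57.6 ± 0.546 TPM for X2, at 60.8 ± 2.10 TPM for X2-PDPN and at 36.1 ± 0.759 TPM for CCR7-PDPN (SD, n = 4 each). The fall in CCR7-PDPN relative to X2 was 0.68 and 0.66 log2 units (log2 fold changes of -0.68, adjusted p = 2.5e-13, and -0.66, adjusted p = 4.6e-22). Abcc10, or MRP7, passed an adjusted p of 0.05 in CCR7-PDPN against X2 of batch 2 (0.28, adjusted p = 0.004), with 0.10 (adjusted p = 0.25) in batch 1. Abcc8 does not export drugs: its product, SUR1, is the regulatory subunit of the ATP-sensitive potassium channel. In batch 1 the X2 libraries of Abcc8 held 12 to 18 counts, those of CCR7 4 to 14 and those of CCR7-PDPN 0 to 2. In batch 2 X2 held 7 to 17, X2-PDPN 7 to 16 and CCR7-PDPN 0 to 5.

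The summed count of Abcc8 in CCR7-PDPN of batch 1 was 3, against 39 in CCR7, a rate 13.6 times lower (95% exact interval 4.32 to 68.7), and against 60 in X2, a rate 21.7 times lower (7.07 to 108). No test is given for either, since the gene passed the filter on low counts in batch 1 through X2 and CCR7. In batch 2 the fitted log2 difference of Abcc8 in CCR7-PDPN was -2.36 (SE 0.48) against X2 and -1.85 (SE 0.51) against X2-PDPN. These too are given with no test, because the gene had entered that table through X2 and X2-PDPN.

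The P-glycoprotein genes Abcb1a and Abcb1b encode closely related multidrug pumps, and reads could be split between them. Abcb1b carried nearly all the counts, with 489 to 962 per library and 9.94 to 14.3 TPM. It fell in CCR7-PDPN relative to X2 by 0.34 log2 units (adjusted p = 4.9e-05) in batch 1 and by 0.37 (adjusted p = 1.9e-09) in batch 2. In batch 1 Abcb1a was too low to be tested, with 8 to 19 counts per X2 library, 3 to 10 per CCR7 library and 0 to 3 per CCR7-PDPN library. Its summed count there was 4 in CCR7-PDPN and 53 in X2, a rate 14.4 times lower (95% exact interval 5.29 to 54.7). In batch 2 it had 10 to 20 counts in X2, 4 to 11 in X2-PDPN and 0 to 5 in CCR7-PDPN. The fitted log2 difference was -2.45 (SE 0.49) between CCR7-PDPN and X2 and -1.55 (SE 0.56) between CCR7-PDPN and X2-PDPN. Neither is given with a test, because the gene had entered the table through X2 and X2-PDPN.

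**Figure D4:**
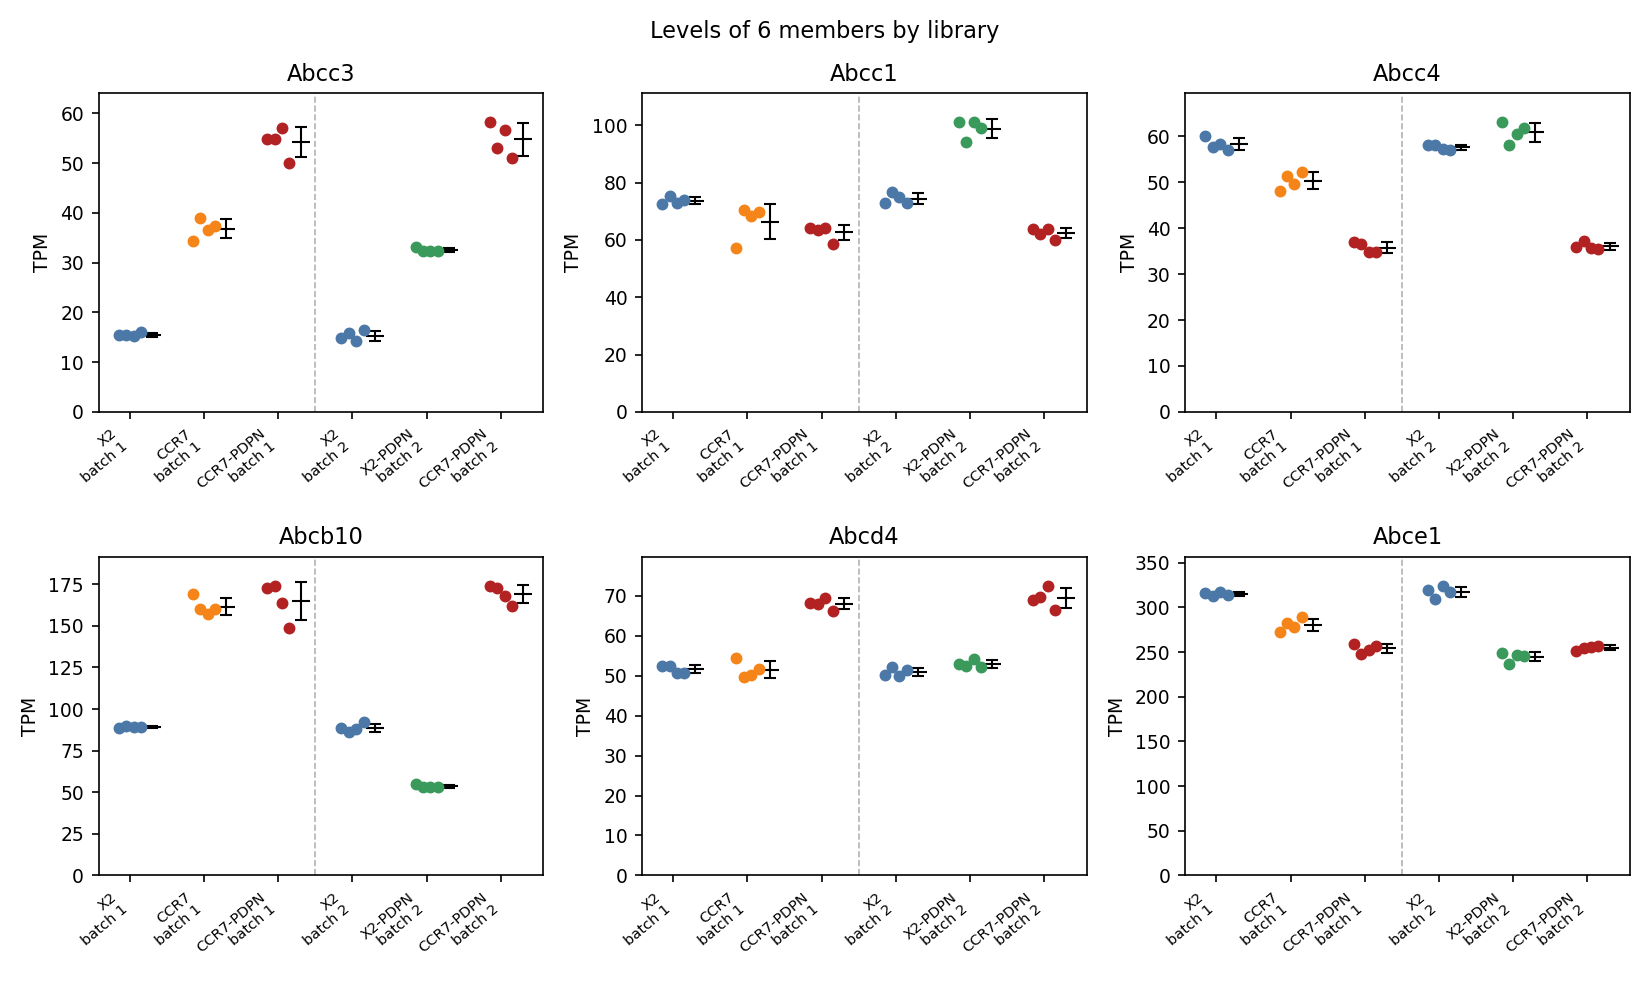
TPM of Abcc3, Abcc1, Abcc4, Abcb10, Abcd4 and Abce1 in each of the 24 libraries; points are libraries, the black bar beside each group is the mean with its SD (n = 4), and the dashed line parts the batches. Abcc3 rises from about 15 TPM in X2 to 54.3 and 54.8 TPM in CCR7-PDPN, Abcc1 is highest in X2-PDPN, and Abcb10 is lowest there.

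The mitochondrial and lysosomal members of subfamily B differed from each other. ABCB10 sits in the inner mitochondrial membrane and serves haem synthesis. In batch 1 the X2 libraries of Abcb10 read 88.4 to 89.6 TPM, those of CCR7 157 to 169 and those of CCR7-PDPN 149 to 174. In batch 2 X2 read 86.3 to 92.1 TPM, X2-PDPN 53.1 to 55.1 and CCR7-PDPN 162 to 174. Both populations with Ccr7 stood above X2 and overlapped with each other (CCR7-PDPN against CCR7, log2 fold change 0.05, adjusted p = 0.29), whereas X2-PDPN stood below it. CCR7 was 0.86 log2 units above X2 (SE 0.04, adjusted p = 8.5e-14), X2-PDPN was below X2 (log2 fold change -0.73, SE 0.03, adjusted p = 2.9e-23), and CCR7-PDPN was 1.68 above X2-PDPN (SE 0.03, adjusted p = 6.5e-38).

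Abcb8 fell in CCR7 (-0.37, adjusted p = 4.2e-06) and in CCR7-PDPN of batch 1 (-0.26, adjusted p = 0.00016) relative to X2, and by -0.23 (adjusted p = 4.5e-07) in batch 2. Abcb6, a porphyrin transporter, passed the test only in CCR7 against X2 (-0.27, adjusted p = 0.03). Abcb9, a peptide transporter of lysosomes related to the TAP proteins, was 2.43 ± 0.237 TPM in X2, 1.31 ± 0.221 in CCR7 and 1.51 ± 0.235 in CCR7-PDPN of batch 1. In batch 2 it stood at 2.50 ± 0.163 TPM for X2, at 3.53 ± 0.289 for X2-PDPN and at 1.59 ± 0.197 for CCR7-PDPN (SD, n = 4 each). It fell in CCR7 relative to X2 (-0.91, adjusted p = 1.2e-05), rose in X2-PDPN (0.49, adjusted p = 6.4e-05) and was called lower in CCR7-PDPN against X2-PDPN (-1.14, SE 0.11, adjusted p = 5.6e-12).

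In subfamily D, Abcd4 was raised in CCR7-PDPN. ABCD4 releases vitamin B12 from lysosomes, and ABCD3 imports branched-chain fatty acids and bile acid precursors into peroxisomes. Abcd4 read 49.6 to 54.4 TPM in X2 and CCR7 of batch 1 and 66.2 to 69.6 in CCR7-PDPN, a rise of 0.43 log2 units over CCR7 (SE 0.03, adjusted p = 2.4e-09) and 0.42 over X2 (SE 0.03, adjusted p = 4.9e-10). In batch 2 CCR7-PDPN was 0.47 above X2 (adjusted p = 1.3e-18), while X2-PDPN was at 0.05 (adjusted p = 0.16). Of the comparisons with X2, Abcd3 passed the test in X2-PDPN (0.19, adjusted p = 2.3e-06) and not in CCR7 or CCR7-PDPN, at 47.1 to 48.0 TPM against 40.9 to 41.9 TPM.

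The members acting on ribosomes, the most abundant of the set, had absolute log2 fold changes of 0.38 or less in the 6 comparisons. ABCE1 splits ribosomes after termination. In batch 1 Abce1 was 315 ± 1.94 TPM in X2, 280.4 ± 7.30 in CCR7 and 254 ± 5.28 in CCR7-PDPN. In batch 2 it stood at 317 ± 5.70 TPM for X2, at 245 ± 5.26 for X2-PDPN and at 255 ± 2.65 for CCR7-PDPN (SD, n = 4 each). It was below X2 in each derivative, with log2 fold changes of -0.17 in CCR7 (adjusted p = 1.8e-05), -0.38 in X2-PDPN (adjusted p = 2.5e-17) and -0.29 and -0.30 in CCR7-PDPN (adjusted p = 8.1e-09 and 3.4e-14). Abcf1, which binds the initiation factor eIF2, had log2 fold changes between -0.02 and 0.02 in the 6 comparisons and adjusted p-values of 0.4 or more. Abcf2 was 0.14 higher in CCR7 (adjusted p = 0.00023) and 0.11 lower in X2-PDPN (log2 fold change -0.11, adjusted p = 0.00024) than in X2. Abcf3 stayed between -0.09 and 0.14.

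Whether the difference that came with PDPN depended on Ccr7 was tested as CCR7-PDPN minus CCR7 in batch 1 less X2-PDPN minus X2 in batch 2. Of the 29 members 1 was called, Abcc8 (-3.03, SE 0.77), against 5.44% of 13690 genes. This call rests on the 3 counts of Abcc8 in CCR7-PDPN of batch 1, so nothing is read from it. With a CPM of at least 1 in 4 libraries 0 members were called. By adjusted p alone 5 members were higher and 9 lower, against 20.3% and 20.5% of all genes. Among the well-counted members the difference was lower with Ccr7 for Abca8b (-0.75, adjusted p = 1.2e-08), Abcc4 (-0.53, adjusted p = 3.9e-12), Abcc1 (-0.46, adjusted p = 1.4e-07), Abca2 (-0.42, adjusted p = 1.3e-09) and Abcg1 (-0.39, adjusted p = 4.2e-07). It was higher with Ccr7 for Abcb10 (0.79, adjusted p = 2.6e-15) and Abcd4 (0.38, adjusted p = 2.2e-09). Batch and Ccr7 cannot be told apart in this contrast, since CCR7 was sequenced only in batch 1 and X2-PDPN only in batch 2.

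Some members moved with their chromosome neighbourhood. For each member the median log2 fold change of all other tested genes within 5 Mb of its midpoint was computed. Around Abcb10 (chr8:123952459-123983122) this median was 0.79 in CCR7 against X2, where the gene itself changed by 0.86, and 0.85 and 0.88 in CCR7-PDPN against X2 of the 2 batches, where the gene changed by 0.91 and 0.95. Against X2-PDPN the median of the 116 neighbours was 1.02 and the gene changed by 1.68, so that 0.67 remained after subtraction, under the threshold of 1. In X2-PDPN against X2 the neighbours moved by -0.18 and Abcb10 by -0.73.

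Around Abcc4 (chr14:118482692-118706219) the neighbours moved by -0.55 and -0.56 in CCR7-PDPN against X2, where the gene moved by -0.68 and -0.66, and by -0.63 against X2-PDPN, where it moved by -0.73. Against CCR7 the neighbours moved by -0.09 and the gene by -0.47. Abcd3 and Abca4 lie within 1 Mb of each other on chromosome 3, where the neighbours of Abca4 moved by -0.30 and -0.24 in CCR7-PDPN against X2 and by -0.37 against X2-PDPN; subtracting this left Abca4 at -0.93, -0.94 and -0.68. Abcd3 itself moved by -0.04, -0.02 and -0.21 in these comparisons, while its neighbours moved by -0.34, -0.33 and -0.46. For Abce1 on chromosome 8 the neighbours moved by -0.29 in CCR7 against X2 and by -0.23 and -0.19 in CCR7-PDPN against X2, beside -0.17, -0.29 and -0.30 for the gene. In X2-PDPN against X2 the neighbours of Abce1 moved by -0.18 and the gene by -0.38. Around Abcd4 the neighbours moved by 0.14 and 0.11 in CCR7-PDPN against X2, beside 0.42 and 0.47 for the gene. In the test of whether the PDPN difference depended on Ccr7 they moved by 0.26 and Abcd4 by 0.38. Around Abcg2 the median of the 19 neighbours lay between -0.17 and 0.06 in the 6 comparisons, and around Abcc3 between 0.01 and 0.08. What moved neighbours and members was not tested.

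**Figure D5:**
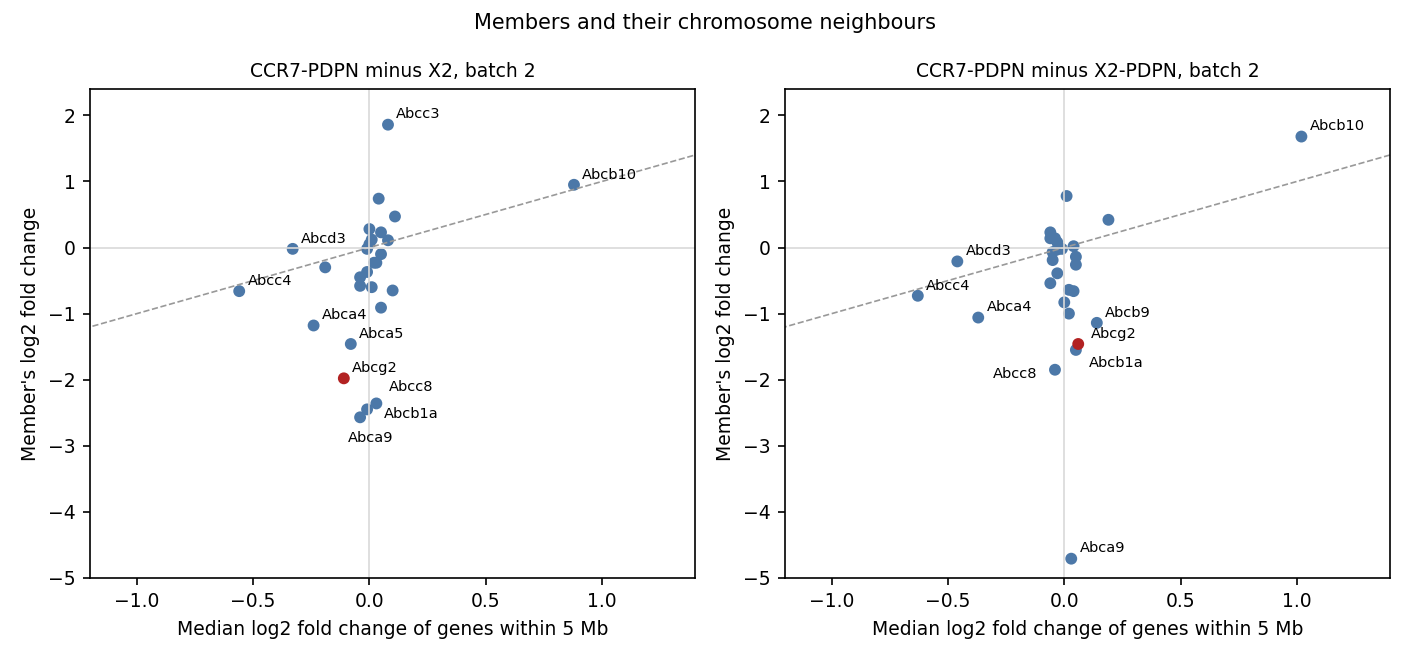
log2 fold change of the members (vertical axis) against the median of the other genes within 5 Mb of it (horizontal axis) in CCR7-PDPN minus X2 (left) and CCR7-PDPN minus X2-PDPN (right), both of batch 2; each point is 1 of 28 members, Abcg2 is red, and the dashed line marks equal change. Abcb10 and Abcc4 lie near the dashed line on the left, whereas Abcg2, Abcc3, Abca5, Abca9, Abcb1a and Abcc8 lie far from it there with neighbours near 0.

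Genes of the pathways around these transporters were described from 6 lists. In the sterol efflux and liver X receptor list, 17 or 18 of 22 genes were tested, 9 were higher and 3 lower by adjusted p in X2-PDPN against X2 (median log2 fold change 0.08), and 5 were higher and 12 lower in CCR7-PDPN against X2-PDPN (median -0.16). Over all genes 28.2% were higher and 28.5% lower in the former comparison, and 31.2% and 32.0% in the latter. The only gene called in it was Apoc1, an apolipoprotein, higher in X2-PDPN than in X2 (1.60, SE 0.38, adjusted p = 0.00035) and lower in CCR7-PDPN than in X2-PDPN (-1.09, SE 0.35, adjusted p = 0.0065). In the xenobiotic and oxidant response list, 16 of 21 were tested and 4 were higher and 6 lower in CCR7-PDPN against X2 of batch 2 (median -0.08), beside 32.0% and 32.8% of all genes. Nqo1, a quinone reductase induced by NRF2 and the aryl hydrocarbon receptor, was the only one called. It rose from 105 ± 3.07 TPM in X2 to 233 ± 3.69 TPM in CCR7-PDPN (SD, n = 4 each; log2 fold change 1.17, adjusted p = 1.9e-30) and was 106 ± 3.59 TPM in X2-PDPN (0.01, adjusted p = 0.81). In CCR7 it was higher than X2 by 0.98 (adjusted p = 8.2e-15). The chromosome neighbours of Nqo1 were not examined, and what raised it was not tested.

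The glutathione conjugation list, whose products are substrates of subfamily C, was tested for 18 of 24 genes. In X2-PDPN against X2, 11 were higher and 2 lower by adjusted p (median log2 fold change 0.21), and in CCR7-PDPN against X2-PDPN 2 were higher and 13 lower (median -0.45), beside a median of 0.00 over all genes in both. The shares of all genes higher and lower were 28.2% and 28.5% in the former and 31.2% and 32.0% in the latter. Gsta4, a transferase for lipid aldehydes, rose relative to X2 in CCR7 (1.16, adjusted p = 8.4e-14), in X2-PDPN (1.69, adjusted p = 3.3e-28) and in CCR7-PDPN (1.45 and 1.49, adjusted p = 8.3e-16 and 2e-26). Mgst3, a microsomal transferase, fell relative to X2 in CCR7 (-2.06, SE 0.37) and in CCR7-PDPN (-2.35, SE 0.39, and -2.82, SE 0.36). For X2-PDPN the change of Mgst3 was -0.10 (adjusted p = 0.74). Its mean was 3.34 and 3.52 TPM for X2 of batches 1 and 2, 0.881 TPM for CCR7, and 0.638 and 0.496 TPM for CCR7-PDPN. Ggt5, which cleaves glutathione conjugates, read higher than X2 of batch 2 by 3.09 (SE 0.36) for X2-PDPN and by 2.29 (SE 0.41) for CCR7-PDPN. Its means there were 0.683 TPM for X2-PDPN, 0.379 TPM for CCR7-PDPN and only 0.0753 TPM for X2. No adjusted p is given for these changes of Mgst3 and Ggt5. Both genes may have passed the filter on low counts only through the groups in which they were higher.

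In the peroxisome list, 28 of 29 genes were tested, and 6 were higher and 9 lower in X2-PDPN against X2 (median -0.07) and 7 higher and 6 lower in CCR7-PDPN against X2 of batch 2 (median -0.05), beside 28.2% and 28.5% of all genes in the former and 32.0% and 32.8% in the latter. Acox2, an oxidase for branched-chain substrates, fell relative to X2 in X2-PDPN (-1.25, adjusted p = 2.5e-05) and in CCR7-PDPN (-1.29 and -1.93, adjusted p = 0.00016 and 5.4e-08). Its level was low, with a mean of 1.24 TPM in X2 and 0.332 TPM in CCR7-PDPN of batch 2. The peroxins Pex2 (-1.06 in CCR7-PDPN against CCR7, adjusted p = 2.6e-10) and Pex7 (-1.14 in CCR7-PDPN against X2-PDPN, adjusted p = 2.8e-24) were also called. None of the 23 haem and iron-sulphur genes was called in any of the 6 comparisons by edgeR, beside 3.27% to 9.63% of all genes. By adjusted p alone, however, 7 were higher and 7 lower in CCR7-PDPN against X2 of batch 2, beside the same 32.0% and 32.8%. In the list on ribosome recycling and eIF2, with all 21 tested, 2 were higher and 13 lower in X2-PDPN against X2 (median -0.12), and 13 were higher and 4 lower in CCR7-PDPN against X2-PDPN (median 0.13), beside 28.2% and 28.5%, then 31.2% and 32.0%, of all genes.

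Tap1 and Tap2, the ABC proteins that carry peptides to MHC class I, have other symbols and were not members. In batch 1 Tap1 was 42.8 ± 1.78 TPM in X2, 24.4 ± 0.610 in CCR7 and 19.6 ± 0.987 in CCR7-PDPN, and in batch 2 X2-PDPN stood at 24.5 ± 0.538 TPM beside 43.2 ± 1.74 TPM for X2 (SD, n = 4 each). It fell relative to X2 in CCR7-PDPN (-1.11, adjusted p = 4.2e-15, and -1.08, adjusted p = 3.8e-26), whereas Tap2 fell by 0.20 and 0.14 (adjusted p = 1.8e-05 and 0.00047). Cftr had 1 count in all 12 libraries of batch 1. A further 20 annotated ABC genes were in the batch 1 table alone, 15 of them with at most 3 counts in every library. Among these was Abca1, the main cholesterol exporter of macrophages, with at most 1 count. Abcc2, which encodes MRP2, had 6 to 10 counts in X2 and at most 1 in CCR7 and in CCR7-PDPN.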

How the data were processed

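Per the labels and the methods of the study, polyadenylated RNA was made into TruSeq stranded libraries and sequenced as 75 bp single-end reads on an Illumina NextSeq. The authors mapped the reads to GRCm38 and deposited whole-number counts per Ensembl gene, in 1 table per batch, unnormalised and with replicates unpooled. The batch 2 table held only genes with at least 10 counts in some library. The deposited gene length, which is the exonic length in both tables, was used to compute TPM. Members and gene lists were chosen with earlier results of these data known.

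Each batch was fitted on its own in R 4.3.3. Genes were filtered with filterByExpr, libraries were scaled by TMM (factors of 0.9859 to 1.017), and edgeR 4.0.16 tested the counts with its robust quasi-likelihood method, with Benjamini-Hochberg adjustment over 13261 genes in batch 1 and 13314 in batch 2. The interaction was fitted over all 24 libraries and 13690 genes. Alternatives were scaling by RLE or by the upper quartile, DESeq2 1.42.0, weaker and stronger filters, a fit of only the groups compared, a replicate block, a call without the fold change and each library left out. Named genes were Abcg2, the called members, the 2 most abundant members of each subfamily, the Abcb1 pair, Tap1, Tap2, Cftr, and up to 3 genes of each list past the threshold. The remaining members are given more briefly. Some genes are not reported here by name, although they entered the fits and counts. The genes around a member are those whose midpoint lies within 5 Mb of its own. A gene with 3 counts or fewer in every library of a group is given by the ratio of summed counts with a 95% exact interval, which covers counting error only. On simulated data in each batch, 100 of 100 genes changed by 2 and 100 of 100 changed by 1.5 on the log2 scale were called, with 1 unchanged gene called. The changed genes were drawn only from those with a mean CPM above 1, and a single spread was used for all genes. Recovery of genes with fewer counts, as in most of the called members, was not tried. Figures were made with Python 3.11.15 and matplotlib 3.10.9.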

Additional observations from a re-analysis of the deposited data

Results flagged for a closer look

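Of 180 sets of 4 libraries, 10 held a highest or lowest library whose gap to its nearest neighbour, divided by the range of the 4, exceeded Dixon's 95% critical value, by which chance alone picks about 1 in 20 sets. In CCR7, replicate 1 read 57.2 TPM of Abcc1 (others 68.2 to 70.3), and it is the library whose counts stood apart from its group, while replicate 3 read 4.21 TPM of Abcb6 (others 3.79 to 3.86). In CCR7-PDPN of batch 1, replicate 4 read 58.5 TPM of Abcc1 (others 63.6 to 64.3) and 27.5 TPM of Abcg1 (others 29.8 to 30.2). In X2 of batch 1, replicate 1 read 12.5 TPM of Abcc5 (others 13.2 to 13.3) and replicate 3 read 19.3 TPM of Abcg2 (others 20.4). In batch 2, X2-PDPN replicate 1 read 55.1 TPM of Abcb10 (others 53.1 to 53.3) and 33.2 TPM of Abcc3 (others 32.3 to 32.4). CCR7-PDPN replicate 1 of that batch read 1.89 TPM of Abcb9 (others 1.47 to 1.54), and X2 replicate 3 read 0.449 TPM of Abcb1a (others 0.251 to 0.269).

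The difference that came with PDPN was lower with Ccr7 than without it for Abcc8 (log2 difference -3.03, SE 0.77, edgeR). Abcc8 had 3 counts in CCR7-PDPN of batch 1 and was tested there only because X2 and CCR7 held more, so no adjusted p is given. Among the ABC genes listed in the batch 1 table alone, Abca3 reached 12 counts in a CCR7 library against at most 9 in X2 and 0 in CCR7-PDPN, and Abca8a reached 4 counts in CCR7 against 1 in X2.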

How the results depend on the processing

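The number of called members moved mainly with the filter on low counts and with the fold change threshold. In the order CCR7-PDPN against CCR7, CCR7 against X2 and CCR7-PDPN against X2 of batch 1, then in the second batch X2-PDPN against its vector control, and CCR7-PDPN first against X2 and then against X2-PDPN, 2, 2, 3, 2, 6 and 6 members were called. Without a fold change threshold these became 13, 16, 19, 18, 23 and 21. With a CPM of at least 1 in 4 libraries they became 0, 1, 1, 1, 1 and 2, and 0 in place of 1 for the interaction, since the members with few counts were no longer tested. With no filter on low counts CCR7 against X2 gave 4 and CCR7-PDPN against X2 of batch 1 gave 6. Fitting only the groups compared gave 1 for CCR7-PDPN against CCR7, and 3 each for CCR7-PDPN against X2 and against X2-PDPN of batch 2. Of the log2 fold changes of called members, 14 were still tested in these fits and each stayed past the threshold. The members no longer called were not tested there. Leaving out 1 library at a time gave 2 to 3, 1 to 3, 3 to 4, 2 to 3, 6 to 6 and 5 to 7 called members in the same order. CCR7 against X2 fell to 1 without CCR7 replicate 2 or X2 replicate 3 or 4, and the interaction gave 1 to 3, with 3 without CCR7 replicate 2. DESeq2, RLE factors and the replicate block changed no count by over 1.5 times, and with the replicate block the counts were 2, 2, 3, 2, 6 and 6, and 1 for the interaction. Same-numbered libraries were not paired: the correlation of their deviations lay between -0.12 and 0.11 over 24 pairs, with 1 above 0.1. Of the log2 fold changes of called members none turned in sign under any alternative run. Subtracting the median of the neighbouring genes left 4 of them under the threshold. These were Abcb10 in CCR7-PDPN against X2-PDPN, at 0.67, and Abca4 in 3 comparisons of CCR7-PDPN. Abca4 was left at -0.93 and -0.94 against X2 of batches 1 and 2, and at -0.68 against X2-PDPN. Depth limits Abca4, Abca5, Abca9, Abcb1a, Abcc8 and Abcg5, whose calls rest on few counts, and with 4 technical replicates of 1 population per derivative the spread between independently made lines is not known.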
